A study of Mus musculus with 24 samples.

Results

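Transcripts of 10 protein kinase C (PKC) and protein kinase D (PKD) genes were followed in common lymphoid progenitors (CLPs) and B cell progenitors that carried or lacked the phospholipases PLCγ1 and PLCγ2. The genes were Prkca, Prkcb, Prkcd, Prkce, Prkch, Prkcq, Prkcz, Prkci, Prkd2 and Prkd3. They were taken by gene symbol, without regard to their values, from the 24421 genes counted. All 10 had enough reads to be tested in both populations.

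PLCγ cleaves a membrane lipid into inositol trisphosphate, which releases calcium, and diacylglycerol (DAG), which stays in the membrane. Classical PKCs need calcium and DAG, a further group of PKCs responds to DAG alone, and atypical PKCs respond to neither. PKDs bind DAG and are also switched on by PKCs, and in lymphocytes these kinases carry signals from antigen and cytokine receptors.

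The samples were 24 bulk RNA-seq libraries in 8 groups of 3, made from 2 sorted bone marrow populations of 4 genotypes. CLPs were sorted as Lin-IL-7R+ and B cell progenitors as B220+IgM-IL-7R+. Wild-type cells were PLCgamma1+/+PLCgamma2+/+, written here as Plcg1+/+Plcg2+/+. The other genotypes were Plcg1-/-Plcg2+/+, Plcg1+/+Plcg2-/- and the double-deficient Plcg1-/-Plcg2-/-. Plcg2 was lost in the germ line, whereas floxed Plcg1 was removed by MxCre, a Cre driven by an interferon-inducible promoter, after poly(I-C) injection of the donors. By the study's methods the donors of every group, wild type included, carried MxCre and a YFP reporter of Cre activity and received poly(I-C), on a mixed 129xC57BL/6 background. Their marrow was then grown in irradiated CD45.1+ wild-type hosts, whose stroma kept both phospholipases. Donor cells were gated by CD45.2, and the gate described for sequencing did not name YFP, so cells that escaped Plcg1 deletion could be present. The libraries of both populations came from the same 12 mice. By the same methods the donors were young adults and the mice were of both sexes.

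Between 4232345 and 33219995 reads fell on genes in each CLP library, and between 1479582 and 25057223 in each library of B cell progenitors. Levels are given as CPM, read counts scaled to a common library size, after TMM scaling over all 24 libraries, and 3 reads were worth at most 0.709 CPM in CLPs and 2.03 CPM in B cell progenitors. Plcg2 transcripts ran from 72.1 to 138 CPM in the 12 Plcg2-/- libraries and from 183 to 282 CPM in the others. Plcg1 read 56.1 to 185 CPM in the 12 Plcg1-/- libraries and 77.4 to 113 CPM in the others, and whole-gene counts do not show whether the floxed part was missing. The 12 Plcg1-/- libraries held 1294 to 2314 CPM of Xist and at most 19.1 CPM of the Y-linked Ddx3y, against 23.6 to 743 and at least 98.2 CPM in the 12 Plcg1+/+ libraries. Loss of Plcg1 and this sex-linked difference therefore cannot be told apart in any comparison with Plcg1+/+ cells.

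The CLP libraries were not alike. In 4 of them (wild-type replicate 1 and replicate 2 of each of the other genotypes), Flt3, a cytokine receptor of early lymphoid progenitors, ran from 196 to 735 CPM, against at most 115 CPM in the other 20 libraries. The same 4 were high in Gata3 (67.4 to 126 CPM, against 2.19 to 53.3 CPM in the other 8 CLP libraries) and Itga2b (146 to 364 CPM, against 19.5 to 85.0 CPM). Those other 8 CLP libraries carried 75.2 to 253 CPM of Pax5, a transcription factor of B lineage commitment, in a range that overlapped that of the B cell progenitors (52.4 to 218 CPM). Their Flt3 (25.8 to 115 CPM) overlapped that of the B cell progenitors (28.4 to 111 CPM) as well. A further 6 libraries, replicate 1 of the mutant genotypes in both populations, had 7533 to 9415 CPM of 8 summed myeloid markers, against 1526 to 6595 CPM elsewhere. Both sets were drawn after the data were seen, and results that rest on them are given with and without them. In bulk samples, fewer cells of a type and less RNA per cell cannot be told apart.

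Prkcd and Prkcb, a DAG-responsive and a classical PKC, had the highest mean levels in wild-type cells once reads were divided by the length of merged exons. In wild-type CLPs, Prkcd stood at 55.2 ± 9.17 CPM per kb and Prkcb at 48.0 ± 23.3 CPM per kb (SD, n = 3 for every group mean and SD in this text). In wild-type B cell progenitors the order was turned, with Prkcb at 70.3 ± 9.50 and Prkcd at 53.5 ± 7.69 CPM per kb. The libraries of the 2 genes overlapped in CLPs and did not in B cell progenitors. In CLPs Prkcb (22.7 to 68.4 CPM per kb) also overlapped Prkd2 (25.3 to 36.2). Divided instead by the longest transcript, Prkcb also led in CLPs (110 against 107 CPM per kb).

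By their means the PKD genes came next. Prkd2, the PKD that predominates in lymphocytes, read 31.5 ± 5.58 CPM per kb in wild-type CLPs and 25.8 ± 3.22 in B cell progenitors, and Prkd3 14.99 ± 0.931 and 17.02 ± 0.550. Prkce (9.12 ± 3.17 CPM per kb in CLPs), Prkci (8.12 ± 1.38), Prkch (6.04 ± 2.55), Prkca (5.86 ± 1.42) and Prkcq (3.58 ± 3.21) each overlapped the next in wild-type CLPs. In B cell progenitors only Prkce and Prkci among these 5 overlapped their neighbour, at 11.6 ± 1.71 and 11.1 ± 0.385 CPM per kb, followed by Prkca at 5.56, Prkch at 3.45 and Prkcq at 1.66. Prkcz was lowest in both, at 0.272 and 0.235 CPM per kb, from 1 to 64 reads per library over all 24. Prkd1, the PKD gene outside the 10, was scarce too, at 5.70 CPM or less.

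**Figure D1:**
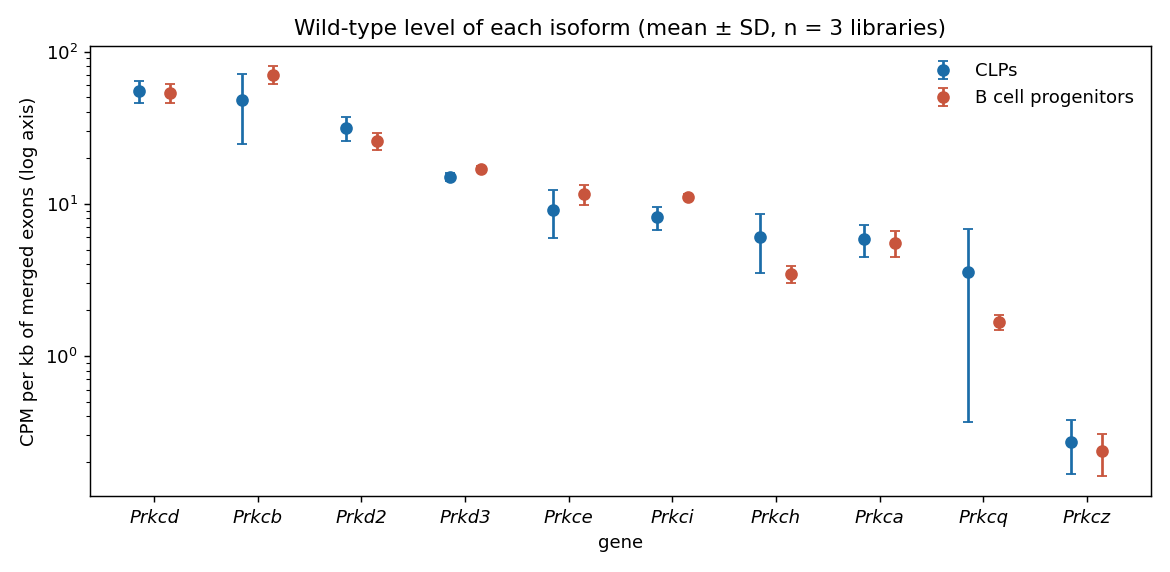
Level of each isoform in wild-type CLPs and B cell progenitors, as CPM per kb of merged exons on a log axis. Points are means of 3 libraries and bars are SD, and the levels span from 0.235 (Prkcz) to 70.3 (Prkcb) CPM per kb.

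The comparison of double-deficient with wild-type cells asks whether loss of the enzyme that makes DAG was accompanied by a change in transcripts of the kinases that read it. A gene was called when the adjusted p was at most 0.05 and the log2 fold change at least 0.5 in either direction. None of the 10 genes was called by edgeR's quasi-likelihood test in either population, where 0.0921% of 15209 genes were called in CLPs and 0.893% of 15001 in B cell progenitors. At an unadjusted p of at most 0.05 the counts were 1 of 10 in CLPs (7.52% of all genes) and 3 of 10 in B cell progenitors (12.3%). DESeq2 called 0 of the 10 in CLPs (1.11% of all genes) and 1, Prkcq, in B cell progenitors (2.96%). The median log2 fold change of the 10 was -0.05 in CLPs and 0.01 in B cell progenitors, beside -0.03 and -0.02 over all genes.

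Prkcq encodes PKCθ, the DAG-responsive isoform best known from T cell receptor signalling. In wild-type B cell progenitors it read 13.3, 10.96 and 11.1 CPM, and in double-deficient ones 17.7, 23.1 and 27.1 CPM. Every double-deficient library lay above every wild-type library. The log2 fold change was 0.95 ± 0.24 (SE; 95% interval 0.43 to 1.47), with an edgeR adjusted p of 0.111. It passed the threshold with DESeq2 (log2 fold change 0.96, adjusted p 0.0123) and in edgeR once replicate numbers entered as a block (0.94, adjusted p 0.0470). The block called 3.67% of all genes there. Libraries of the same number were not paired in that comparison: their deviations from group means correlated at -0.09 to 0.22. Leaving out 1 library at a time gave 0.81 to 1.09. The single mutants lay between in their means: Plcg1-/-Plcg2+/+ B cell progenitors had 13.5, 18.5 and 25.0 CPM, all above wild type, and Plcg1+/+Plcg2-/- ones had 16.3, 13.1 and 12.7 CPM, which overlapped wild type. Markers of other lymphocytes differed in the same direction, with sums that overlapped wild type in double-deficient cells: all 6 T cell and all 6 NK and innate lymphoid markers had positive log2 fold changes in double-deficient B cell progenitors (0.35 to 0.97 and 0.33 to 1.51) and in Plcg1-/-Plcg2+/+ ones (1.06 to 1.94 and 0.58 to 2.05), none of them called. The summed T cell markers were 14.95 to 30.6 CPM in wild-type, 10.7 to 64.8 CPM in double-deficient and 30.4 to 113 CPM in Plcg1-/-Plcg2+/+ B cell progenitors, and the NK and innate sums were 44.8 to 80.9, 72.5 to 157 and 85.1 to 168 CPM, with no marker at 0 in these libraries. Markers of some other cells did so too. All 8 myeloid, 6 macrophage and 5 plasmacytoid dendritic cell markers had positive log2 fold changes in double-deficient cells (0.59 to 1.55, 0.50 to 1.57 and 0.60 to 1.11). In Plcg1-/-Plcg2+/+ cells they ran 0.76 to 1.11, 0.51 to 0.74 and 0.33 to 1.11, and none was called. B lineage markers ran from -0.80 to 1.35 and from -0.72 to -0.18 in the same order. Early lymphoid markers ran from -0.59 to 1.35 and from -0.61 to 1.21. Megakaryocyte and platelet markers ran from -0.58 to 0.97 and from -0.26 to 1.12, and erythroid ones from 0.33 to 1.09 and from -1.35 to 0.24. The part of any of these markers in the Prkcq difference was not tested. Over Plcg2-/- alone the double-deficient cells differed by 0.69 ± 0.25 (edgeR adjusted p 0.382), again without overlap, and over Plcg1-/- alone by 0.24 ± 0.24 (adjusted p 0.714), with overlap.

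In CLPs, the 4 libraries of high Flt3 also had the 4 highest values of Prkcq. Wild-type CLPs had 51.3, 9.26 and 15.4 CPM and double-deficient CLPs 24.1, 43.7 and 32.8 CPM. The groups overlapped, through wild-type replicate 1. The log2 fold change of 0.36 ± 0.59 became 1.38 without that library and 1.17 ± 0.33 without the 4 libraries of high Flt3, and neither passed the test (edgeR adjusted p 0.331 and 0.286). Over all libraries, the 6 T cell markers were lower in double-deficient than in wild-type CLPs (-1.06 to -0.35). NK and innate lymphoid markers ran from -1.11 to 0.60, and none of either list was called.

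Both classical genes read lower in double-deficient than in wild-type B cell progenitors, short of the threshold. Prkcb encodes PKCβ, which links the B cell receptor to NF-κB. It read 621, 508 and 485 CPM in wild-type B cell progenitors and 223, 475 and 355 CPM in double-deficient ones, and all 3 of the latter were lower. Its log2 fold change was -0.62 ± 0.26 (edgeR adjusted p 0.367). Without the 6 libraries of high myeloid RNA, which include the lowest of the 3, it was -0.41, and leaving out single libraries gave -0.89 to -0.37. Plcg1-/-Plcg2+/+ B cell progenitors were similarly low, at 308, 390 and 354 CPM (-0.60 ± 0.26, edgeR adjusted p 0.467), whereas the Plcg1+/+Plcg2-/- libraries at 331, 568 and 352 CPM overlapped wild type. In CLPs the Prkcb values of wild type (173, 523 and 405 CPM) enclosed those of double-deficient cells (252, 378 and 444 CPM).

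Prkca, which encodes the widely expressed PKCα, had 60.7, 42.2 and 47.0 CPM in wild-type B cell progenitors and 22.9, 33.2 and 38.3 CPM in double-deficient ones. Again there was no overlap, with a log2 fold change of -0.66 ± 0.23 (edgeR adjusted p 0.263). In CLPs the high-Flt3 library of each genotype was its highest, and the groups overlapped (67.3, 46.8 and 43.9 CPM in wild type against 34.4, 71.0 and 32.6 CPM in double-deficient cells). The span of Prkca overlaps those of Apoh and Mir7223, and the libraries do not keep strand. The spans of Prkce and Prkci overlap counted genes as well, 2010106C02Rik and Mir7008 respectively. Whether exons overlap was not checked, so whether any reads were lost or misplaced is not known.

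The 2 promoters printed here belong to Prkcb and Prkcq, which lay on opposite sides of wild type in double-deficient B cell progenitors. They are windows on GRCm38.p6, from 250 bases before to 50 after a listed transcript start. They are written 5′ to 3′ on the strand of the gene, with the GC box GGGCGG or its reverse complement in capitals. Prkcb is at chr7:122288875-122289174 (plus strand) and Prkcq at chr2:11172132-11172431 (plus strand). The RefSeq span of Prkcb starts at 122289104, inside its window, and that of Prkcq at 11171905, so the Prkcq window lies within the gene.
Prkcb: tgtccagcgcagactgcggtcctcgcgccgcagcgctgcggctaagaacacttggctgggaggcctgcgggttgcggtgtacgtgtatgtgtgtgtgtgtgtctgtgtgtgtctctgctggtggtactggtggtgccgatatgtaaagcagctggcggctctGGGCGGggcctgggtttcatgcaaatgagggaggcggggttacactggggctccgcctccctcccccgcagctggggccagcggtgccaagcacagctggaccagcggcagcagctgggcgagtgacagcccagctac
Prkcq: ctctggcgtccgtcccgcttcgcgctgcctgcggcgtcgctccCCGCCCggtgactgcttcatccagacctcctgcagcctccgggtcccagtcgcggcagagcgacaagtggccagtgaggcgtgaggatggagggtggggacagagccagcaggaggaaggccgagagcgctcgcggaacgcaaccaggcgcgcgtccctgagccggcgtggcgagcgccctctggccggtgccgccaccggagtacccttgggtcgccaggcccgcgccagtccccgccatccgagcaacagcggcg
Each held 1 GC box, a motif found on either strand in 35.7% of 32851 promoters of this length. Prkcb had 6 matches to the E-box CANNTG and Prkcq 1, where 72.3% of promoters had any. The ETS-type motif GGAAGT was in neither (23.8% of promoters) and GAGGAA was in Prkcq once (28.3%). GC content was 65.3% and 73%. Of the 10 genes, 8 had a promoter in the table, and Prkce and Prkch did not.

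Prkcd, whose product PKCδ restrains B cell activation and survival, was the one gene with an unadjusted p under 0.05 in CLPs. It read 248, 329 and 342 CPM in wild-type CLPs and 436, 408 and 372 CPM in double-deficient CLPs, all of them higher. The log2 fold change was 0.40 ± 0.18 (edgeR adjusted p 0.663), and it was 0.25 without wild-type replicate 1, the lowest and a high-Flt3 library, 0.27 without all 4 of those and 0.34 without the 6 high-myeloid libraries. Some markers of other cells differed in the same direction. All 8 myeloid (0.66 to 1.38), 6 macrophage (0.34 to 0.82) and 4 megakaryocyte and platelet markers (0.43 to 1.39) had positive log2 fold changes. All 6 T cell markers went the other way (-1.06 to -0.35). The B lineage, early lymphoid, NK and innate lymphoid, plasmacytoid dendritic and erythroid lists each held both signs. None of these markers was called. The summed macrophage markers were 59.3 to 96.4 CPM in wild-type and 96.8 to 135 CPM in double-deficient CLPs, and the myeloid sums were 2442 to 4250 and 3637 to 8581 CPM. Their part in the Prkcd difference was not tested. All 3 Plcg1-/-Plcg2+/+ CLP libraries were above wild type as well, at 371, 411 and 342 CPM, by 0.29 ± 0.18 on the log2 scale (0.07 without the high-Flt3 libraries). In B cell progenitors Prkcd overlapped, at 254, 297 and 339 CPM in wild type and 351, 324 and 323 CPM in double-deficient cells.

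Prkch, which encodes PKCη, lay above wild type in 2 of 3 double-deficient B cell progenitor libraries, reading 24.9, 50.4 and 51.1 CPM against 22.6, 28.9 and 26.4 CPM. Against Plcg1+/+Plcg2-/- B cell progenitors (26.3, 16.2 and 27.4 CPM) its log2 fold change was 0.90 ± 0.36 (edgeR adjusted p 0.411), with the lowest double-deficient library inside the range of the others. Prkce, which encodes PKCε, gave 84.4, 96.3 and 71.5 CPM in wild-type B cell progenitors and 35.4, 77.3 and 59.3 CPM in double-deficient ones, overlapping at a log2 fold change of -0.54 ± 0.28.

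Of the atypical genes, Prkci encodes PKCι, a partner of the Par polarity proteins. It read 59.8, 64.0 and 61.2 CPM in wild-type B cell progenitors and 32.8, 58.6 and 50.3 CPM in double-deficient ones, all lower, by 0.37 on the log2 scale (SE 0.19, edgeR adjusted p 0.450). Without the 6 high-myeloid libraries the value was -0.20. Prkcz, which encodes PKCζ, was higher in all 3 double-deficient B cell progenitor libraries (1.97, 2.32 and 2.38 CPM against 1.87, 1.61 and 0.981 CPM), on 6 to 54 reads in double-deficient libraries. A RefSeq pseudogene, Prkcz2, was not counted, so reads the copies share could be lost or misplaced.

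No difference of the PKD genes between genotypes passed the test. Prkd2 spread widely within double-deficient cells, at 104, 253 and 261 CPM in CLPs and 84.2, 242 and 160 CPM in B cell progenitors, and in each population the lowest value was in a library of high myeloid RNA. The 6 such libraries held 71.8 to 104 CPM of Prkd2 and the other 18 held 100 to 261 CPM. Their part in the spread was not tested. Prkd3 varied little, from 149 to 206 CPM over all 24 libraries, with log2 fold changes of 0.02 ± 0.12 in CLPs and -0.15 ± 0.13 in B cell progenitors.

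**Figure D2:**
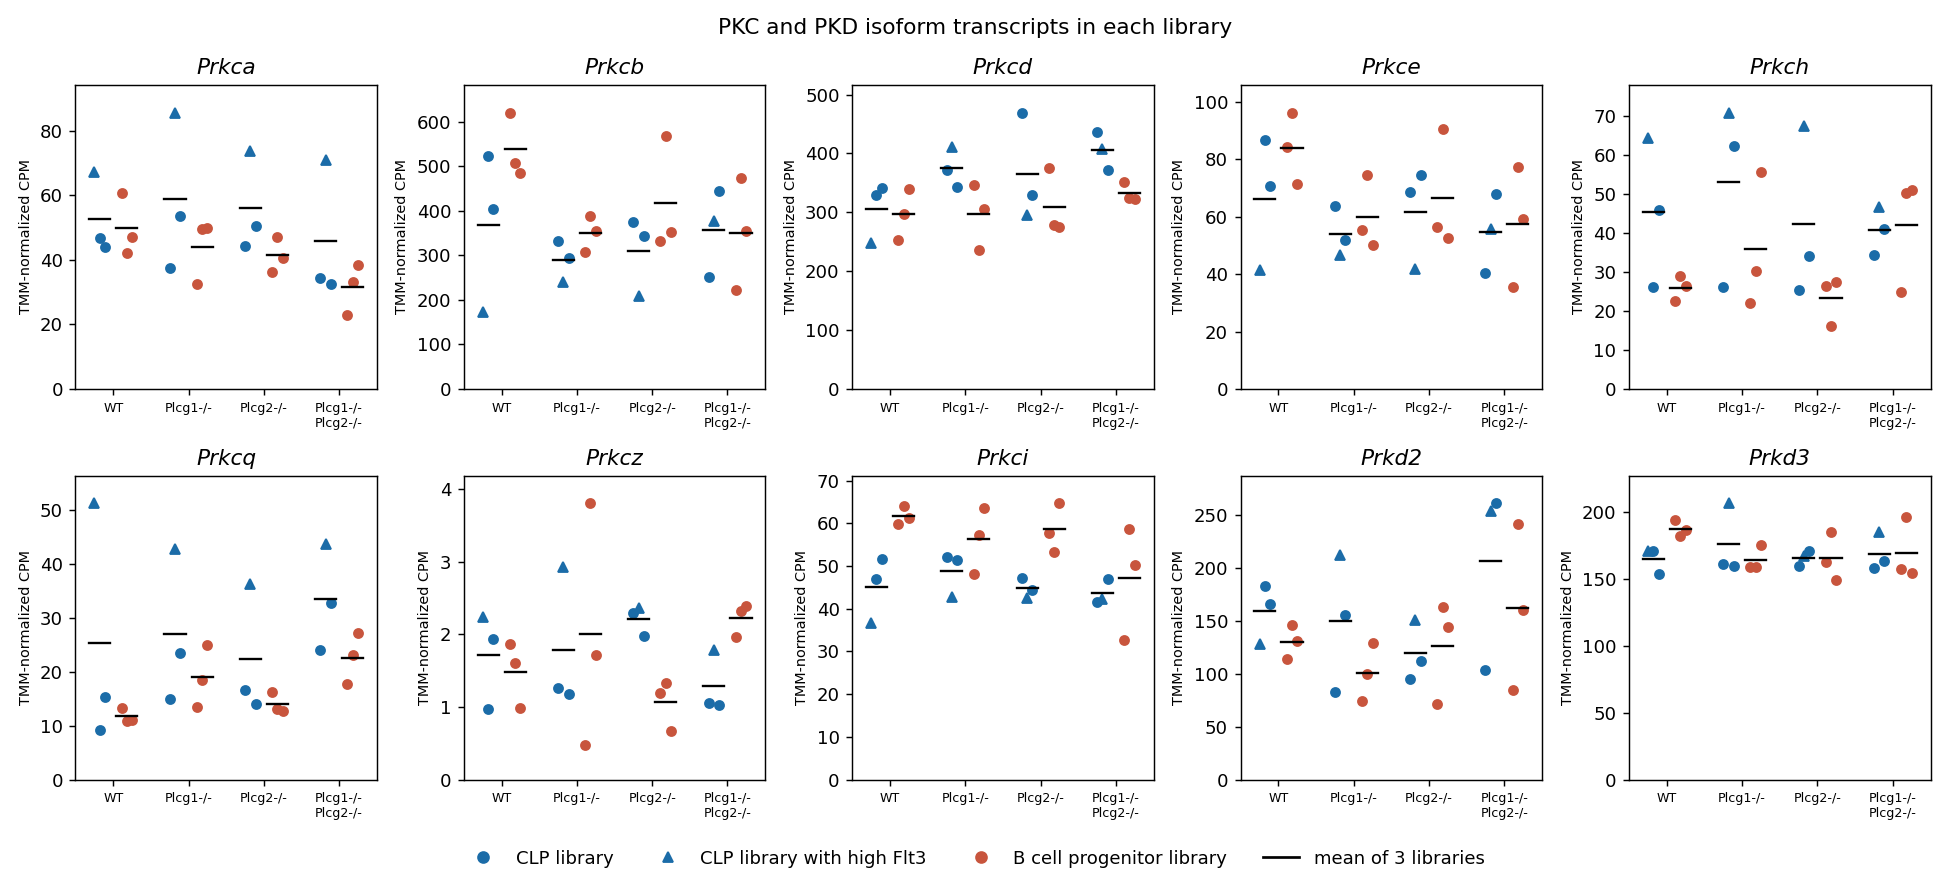
TMM-normalized CPM of each isoform in each of 24 libraries, by genotype, with CLPs in blue, B cell progenitors in red, triangles for the 4 CLP libraries with high Flt3 and bars for group means. In B cell progenitors the 3 double-deficient values of Prkcq (17.7 to 27.1 CPM) lie above the 3 wild-type values (10.96 to 13.3 CPM) and those of Prkca and Prkcb lie below.

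Libraries of double-deficient and wild-type B cell progenitors did not overlap for 5 of 10 genes: 2 were higher (Prkcq and Prkcz; 9.03% of all genes were so) and 3 lower (Prkca, Prkcb and Prkci; 10.2%). In CLPs this held for 1 gene, Prkcd, which was higher (6.27% of all genes). As a share of the summed level per kb of the 10 genes, the classical pair was 37.9 ± 5.03% in wild-type and 26.5 ± 3.90% in double-deficient B cell progenitors. The 4 DAG-responsive, calcium-independent genes were 35.1 ± 3.76% and 43.2 ± 8.12%, the PKD genes 21.4 ± 1.38% and 25.4 ± 4.02%, and the atypical genes 5.67 ± 0.193% and 4.82 ± 0.418%. Most of the classical share was Prkcb, at 35.1% of the 10 genes in wild type, beside 2.77% for Prkca. No difference in these shares was tested.

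**Figure D3:**
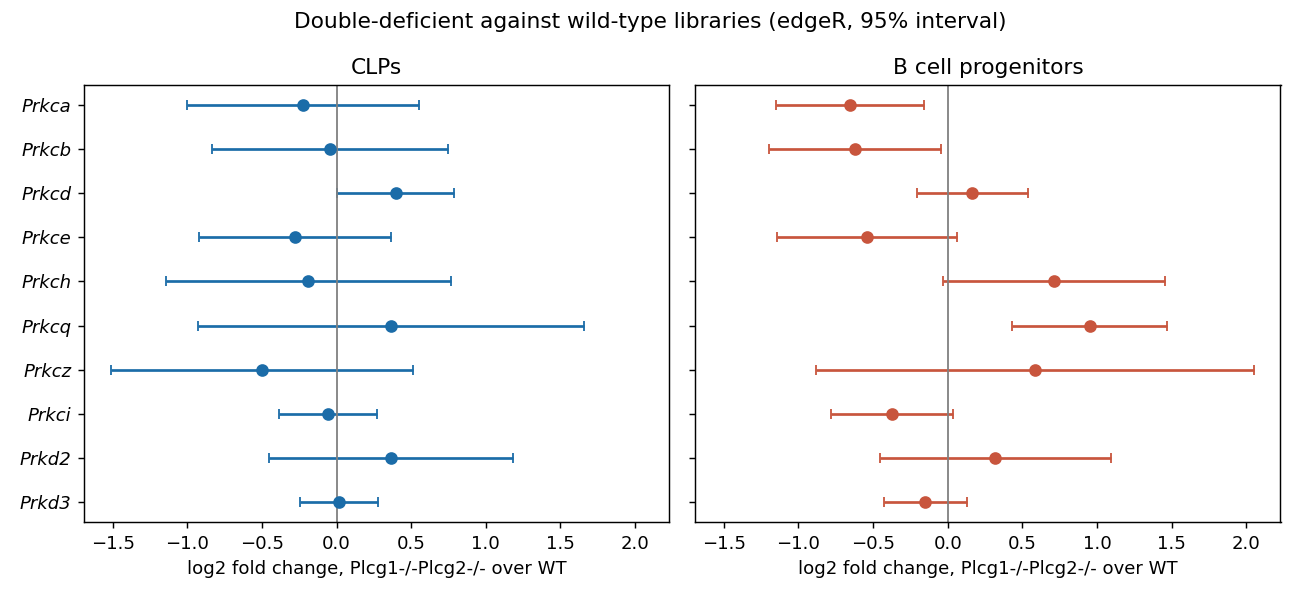
Log2 fold change of double-deficient over wild-type libraries for each isoform, with edgeR's estimate as a point and its 95% interval as a bar, in CLPs (left) and B cell progenitors (right). In B cell progenitors the intervals of Prkcq (0.43 to 1.47), Prkca (-1.15 to -0.16) and Prkcb (-1.20 to -0.04) leave out 0, before adjustment over all genes.

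Single deficiency was compared with wild type in the same fits, which share the wild-type libraries. None of the 10 genes was called in Plcg1-/-Plcg2+/+ CLPs (0.00658% of all genes), Plcg1+/+Plcg2-/- CLPs (0%), Plcg1-/-Plcg2+/+ B cell progenitors (0.06%) or Plcg1+/+Plcg2-/- B cell progenitors (0.0467%) by edgeR. DESeq2 called none of the 10 either, and 0.105%, 0.0723%, 0.193% and 0.113% of all genes in the same order. At an unadjusted p of at most 0.05 there were 2 in Plcg1-/-Plcg2+/+ B cell progenitors, Prkcq and Prkcb (9.93% of all genes), and 0 in Plcg1+/+Plcg2-/- B cell progenitors (2.84%), Plcg1-/-Plcg2+/+ CLPs (2.85%) and Plcg1+/+Plcg2-/- CLPs (3.92%). Libraries did not overlap for Prkcq, higher, in Plcg1-/-Plcg2+/+ B cell progenitors (8.03% of all genes were so), for Prkcb and Prkd3, lower, in the same cells (11.2%), and for Prkcd, higher, in Plcg1-/-Plcg2+/+ CLPs (3.17%). None was called between double-deficient and single-deficient cells either, where the shares of all genes called were 0.0263% and 0.0526% in CLPs and 0.213% and 0.153% in B cell progenitors, over Plcg1-/- and Plcg2-/- cells respectively. DESeq2 also called none of the 10 there, and 0.631% and 0.684% of all genes in CLPs and 5.35% and 1.07% in B cell progenitors. There the counts at an unadjusted p of at most 0.05 were 2 over Plcg1+/+Plcg2-/- B cell progenitors, Prkcq and Prkch (11% of all genes), and 0 over Plcg1-/-Plcg2+/+ B cell progenitors (16.6%), Plcg1-/-Plcg2+/+ CLPs (4.29%) and Plcg1+/+Plcg2-/- CLPs (7.54%). Libraries did not overlap for Prkcq and Prkcz, both higher, over Plcg1+/+Plcg2-/- B cell progenitors (5.77% of all genes were so) and for Prkcz, lower, over Plcg1+/+Plcg2-/- CLPs (7.04%).

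B cell progenitors were also compared with CLPs within each genotype, between libraries of the 2 gates that overlap in Pax5 as given above. No gene of the 10 was called in any genotype by edgeR or DESeq2, where edgeR called 3.5% of 17212 genes in wild type, 3.78% in Plcg1-/-Plcg2+/+, 3.21% in Plcg1+/+Plcg2-/- and 3.24% in double-deficient cells, and DESeq2 4.75%, 8.62%, 4.44% and 4.36%. At an unadjusted p of at most 0.05 there were 2 in wild type (Prkci and Prkcq; 16.1% of all genes), 1 in Plcg1+/+Plcg2-/- cells (Prkci; 16.2%) and 0 in Plcg1-/-Plcg2+/+ (26.5%) and double-deficient cells (14.3%). Libraries did not overlap for Prkci and Prkd3, higher in wild-type B cell progenitors (12.5% of all genes were so), for Prkci, higher, and Prkcz, lower, in Plcg1+/+Plcg2-/- ones (11.1% and 7.24%), and for Prkcz, higher, and Prkcd, lower, in double-deficient ones (11.9% and 9.34%). Prkci was higher in all 3 wild-type B cell progenitor libraries than in the CLP libraries (36.6, 47.0 and 51.6 CPM), with a log2 fold change of 0.45 ± 0.17 (edgeR adjusted p 0.176). Prkcq was lower by 1.12 on the log2 scale (SE 0.48, edgeR adjusted p 0.247), and without wild-type CLP replicate 1 the value was -0.08. The change of this population difference between double-deficient and wild-type cells passed the test for 0 genes of the 10 and 0 of 17212, by edgeR and by DESeq2. Of the 10, 0 had an unadjusted p of at most 0.05 there, beside 1.37% of all genes.

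Within mice, B cell progenitors had less Prkcd than CLPs in 11 of 12 animals, less Prkca, Prkcq and Prkd2 in 10, and more Prkci in 10. How many of all genes differed one way in as many mice was not counted, so these counts do not set the 10 genes apart. The share of reads off genes differed with the population too: 59.9 to 87.3% of reads lay on no gene in B cell progenitor libraries and 17.9 to 45.2% in CLP libraries, so this share and the population cannot be told apart. A contrast averaged over the 4 genotypes, added after these values were seen, was fitted with the mouse as a block. It called Prkcq (-0.60 ± 0.20, edgeR adjusted p 0.0350), where 12.3% of all genes were called. Prkcd (-0.22 ± 0.06, edgeR adjusted p 0.0182), Prkca (-0.34 ± 0.11, 0.0300), Prkd2 (-0.28 ± 0.09, 0.0403) and Prkci (0.28 ± 0.08, 0.0174) passed the adjusted p but not the fold minimum, as 31.5% of all genes passed the adjusted p.

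These differences depended in part on the 4 high-Flt3 CLP libraries. Without them Prkcq was at -0.18 ± 0.11 (edgeR adjusted p 0.253), Prkca at -0.16 ± 0.08 (0.139) and Prkci at 0.17 ± 0.07 (0.0853). Prkcd (-0.21 ± 0.06, edgeR adjusted p 0.00194) and Prkd2 (-0.29 ± 0.06, 2.7e-05) kept their size, still under the fold minimum. The p-values of this smaller fit take the spread of each gene as known, so they can be too small. They cannot be set against those of the full fit. None of the 10 was called in that fit, where 5.79% of all genes were called and 27.9% passed the adjusted p.

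Prkcq and Prkca set the high-Flt3 libraries apart from the other 8 CLP libraries without overlap. Prkcq ran from 36.4 to 51.3 CPM in the 4 and from 9.26 to 32.8 CPM in the 8, and Prkca from 67.3 to 85.6 CPM against 32.6 to 53.7 CPM. Prkch tended the same way with overlap (median 65.9 against 34.2 CPM), and Prkcb and Prkce the opposite way (225 against 360 CPM and 44.3 against 68.2 CPM). These are descriptions of libraries grouped by a measured gene, with no test.

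**Figure D4:**
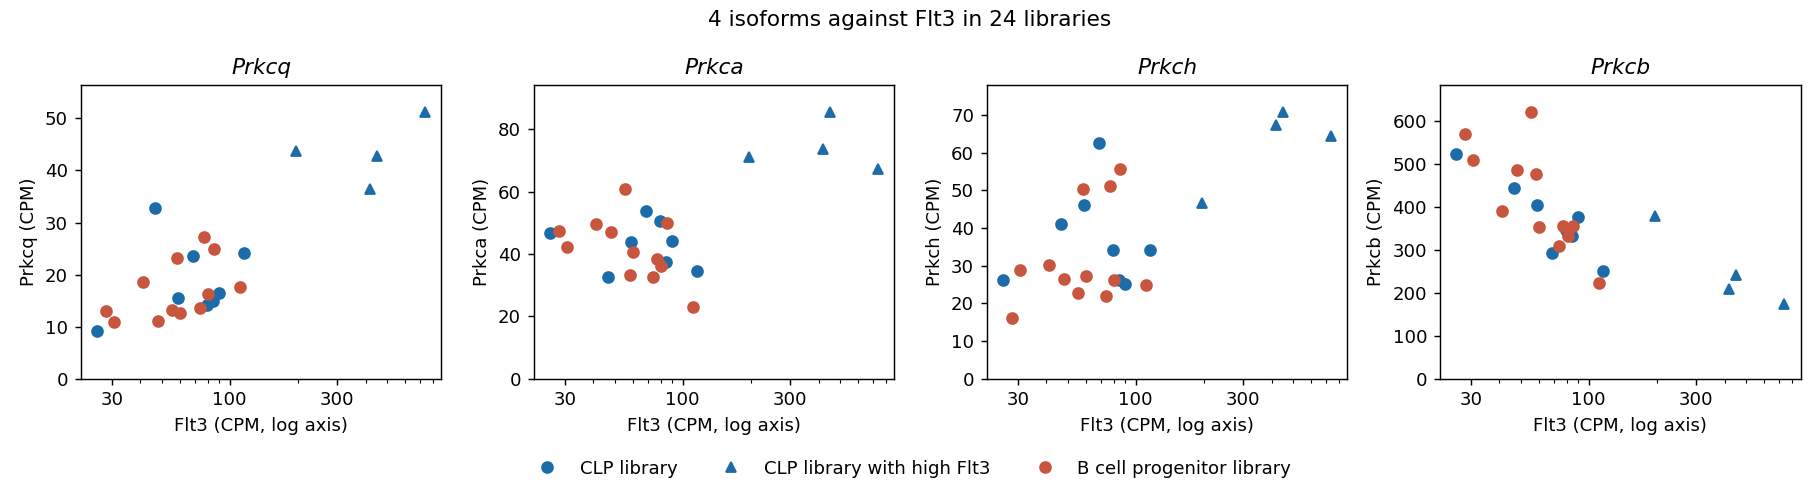
CPM of Prkcq, Prkca, Prkch and Prkcb against CPM of Flt3 (log axis) in 24 libraries, with CLPs in blue, B cell progenitors in red and triangles for the 4 CLP libraries with Flt3 of at least 196 CPM. Those 4 hold the highest Prkcq (36.4 to 51.3 CPM) and Prkca (67.3 to 85.6 CPM) of the 24.

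The genes most like each isoform across the 24 libraries were taken by Pearson's r of log2 CPM, as a description, since libraries share mice and cell makeup. Prkcb followed Cecr2 (r = 0.98), Mtss1 (0.97) and Bcl7a (0.97), and Prkce followed D930015E06Rik and Bcl7a (both 0.92) and Cerk (0.92). Prkd2 followed Hdac7 (0.96), Sipa1 (0.95) and Inpp5d (0.95). Prkch followed Kbtbd11 (0.90), Tcf7 (0.87) and Lax1 (0.87), and Prkcq followed Ick (0.91), Il27ra (0.91) and Slc23a2 (0.90). Prkca followed Cdh24 (0.86), Gsn (0.85) and Slc6a4 (0.84), and Prkcd followed Pgd, Kctd20 and Ywhag (each 0.87). Prkci followed Nus1 (0.85), Med13 (0.83) and Nup160 (0.82), and Prkd3 followed Ercc6l2 (0.83), Zmynd11 (0.82) and Gon4l (0.79). Prkcz, on few reads, followed Ccdc157 (0.83), Rragb (0.73) and Robo4 (0.73).

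Around the kinases, lists of 11 genes for PKC maturation and dephosphorylation, 8 for scaffolds, 8 for atypical PKC partners, 18 for substrates and lymphocyte effectors and 5 related kinases were read from the same fits. In double-deficient against wild-type cells, 0 of 17 tested substrates and effectors were called higher in either population. Of all genes, 0.0395% were called higher in CLPs and 0.22% in B cell progenitors. Rasgrp1 fell in both, and Hdac5 fell in B cell progenitors, while 0 genes of the other 4 lists were called. The shares of all genes called lower were 0.0526% in CLPs and 0.673% in B cell progenitors. Rasgrp1, a DAG-binding activator of Ras that PKC phosphorylates, had 82.3, 50.5 and 69.2 CPM in wild-type and 16.4, 2.96 and 14.8 CPM in double-deficient B cell progenitors (log2 fold change -2.67 ± 0.50, edgeR adjusted p 0.0271). In CLPs it had 59.1, 47.3 and 46.2 CPM against 20.4, 20.2 and 10.3 CPM (-1.60 ± 0.24, edgeR adjusted p 0.0375). Hdac5, a histone deacetylase exported from the nucleus after phosphorylation by PKD, had 303, 238 and 248 CPM in wild-type and 102, 73.6 and 89.4 CPM in double-deficient B cell progenitors (-1.58 ± 0.17, edgeR adjusted p 0.00119). For both genes the groups did not overlap. The median log2 fold change of the substrates and effectors was -0.04 in CLPs and -0.19 in B cell progenitors, beside -0.03 and -0.02 over all genes. In the other comparisons the calls were Hdac5 and Mlst8. Hdac5 was lower in double-deficient than in Plcg1-/-Plcg2+/+ B cell progenitors (-1.07 ± 0.17, edgeR adjusted p 0.0457), where 0.153% of all genes were called lower. Mlst8, a subunit of the mTOR complexes, was higher in B cell progenitors than in CLPs of Plcg1-/-Plcg2+/+ mice (0.67 ± 0.15, edgeR adjusted p 0.0152). There 3.04% of all genes were called higher.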

How the data were processed

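RNA-seq was made from poly(A) RNA with a kit that does not keep strand. Per the labels, reads were aligned with STAR 2.5.0a to mm10; the deposited files hold raw counts of reads per RefSeq gene, made by the authors with a counting program that is not given in the sources used here. Between 17.9% and 45.2% of reads in CLP libraries and 59.9% and 87.3% in B cell progenitor libraries lay on no gene; these rows were left out.

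Groups came from the labels. edgeR 4.0.16 (R 4.3.3; TMM, filterByExpr, quasi-likelihood test, Benjamini-Hochberg adjustment over all genes tested) was fitted to 12 CLP, 12 B cell progenitor and all 24 libraries, with group as the term. A call needed both an adjusted p no higher than 0.05 and a log2 fold change of 0.5 or more in size. Intervals are 95% intervals of the estimated log2 fold change, with 3 libraries a group. They rest on a spread estimated over all libraries of a fit and with information shared across genes. Lengths are merged exons of GENCODE M21. DESeq2 1.42.0, RLE factors, no filter, the replicate block and leaving out libraries were alternatives. The code was tested on simulated data. Genes named were the 10, Plcg1 and Plcg2, listed genes that were called (at most 5 a list and comparison), and the 3 genes with the highest r to each of the 10. Flt3, Gata3, Itga2b, Pax5, Xist, Ddx3y and Prkd1 are given besides as marker, sex-linked and family genes. Some items are not reported here. The members and lists were chosen with earlier results of these data known.

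CLP and B libraries of one number and genotype share a mouse by their titles, so the mouse pairs them. Their deviations from the group means correlated above 0.1 in every mouse only in double-deficient mice (0.17 to 0.35). The lowest correlation was -0.08 in wild type, -0.35 in Plcg1-/-Plcg2+/+ and -0.05 in Plcg1+/+Plcg2-/- mice. Between genotypes the number paired libraries in 3 comparisons, where every correlation of deviations was over 0.1: double-deficient CLPs over each single mutant, and double-deficient over Plcg1+/+Plcg2-/- B cell progenitors.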

Additional observations from a re-analysis of the deposited data

Results flagged for a closer look

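Prkcz had values of opposite sign in 2 pairs of comparisons, and the gap between the members of a pair was not tested. Between B cell progenitors and CLPs of a mouse it was lower in all 3 Plcg1+/+Plcg2-/- mice (mean log2 difference -1.001) and higher in all 3 double-deficient mice (0.75), a gap of -1.75. Correspondingly, double-deficient over Plcg1+/+Plcg2-/- cells gave -0.82 in CLPs and 0.96 in B cell progenitors, with no overlap of libraries in either, a gap of -1.78. None of the 4 single comparisons passed edgeR's test (adjusted p 0.448 and 0.562 between populations, 0.717 and 0.681 between genotypes). These are the same 12 libraries read 2 ways, and Prkcz had 1 to 54 reads in each of them.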

How the results depend on the processing

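Under each alternative run for the 15 comparisons, the number of the 10 genes called stayed at 0, except in double-deficient against wild-type B cell progenitors, where it was 1 (Prkcq) with DESeq2 and 1 with the replicate block. The replicate block changed no other call of the 10; the number did not pair libraries in comparisons with wild type. For Prkcq there, leaving out single libraries gave 0.81 to 1.09 on the log2 scale, with edgeR adjusted p of 0.0843 to 0.435. The 21 results with an unadjusted p of at most 0.05 or groups without overlap kept their sign throughout. Groups without overlap stay apart when a single library is left out, so the way they were picked largely sets this outcome. It is no measure of their stability. Of all 150 gene and comparison results, 56 changed sign in at least 1 setting. Dividing by the longest transcript raised levels per kb without changing that Prkcd and Prkcb led.

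The number of all genes called depended on the tool. Double-deficient against wild-type cells gave 134 in B cell progenitors, 444 with DESeq2, 550 with the block and 243 without the high-myeloid libraries, and in CLPs 14, 169 and 50 with DESeq2 and the block, and 27 without the high-Flt3 libraries. DESeq2 called 802 against 32 and 161 against 23 in double-deficient over Plcg1-/- and Plcg2-/- B cell progenitors, and 96 against 4 and 104 against 8 in CLPs. In single mutants it called 29 against 9 and 17 against 7 in B cell progenitors, and 16 against 1 and 11 against 0 in CLPs. The block gave 100, 46, 17 and 26 in those comparisons of double with single mutants. Without the high-Flt3 libraries, B cell progenitors against CLPs gave 364, 295, 283 and 355 in place of 602, 650, 552 and 557. With 3 libraries a group and at least 1479582 reads on genes, Prkcz rests on 1 to 64 reads a library.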
